A study of Mus musculus with 9 samples.

Results

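The genes described here are 44 mouse genes that code for the core machinery of autophagy, for enzymes and membrane proteins of the lysosome, and for subunits of the vacuolar ATPase (V-ATPase), the proton pump that acidifies the lysosome. They were taken from a list of names, with no threshold on a measured value, but the list was chosen with earlier results of these data known. All 44 were found among the 55401 annotated genes. 43 of them passed the filter on low counts, which kept 16046 genes in all, and Map1lc3b did not. Counts came from nuclei of mouse cortex that were sorted for NeuN, a protein of neuronal nuclei, in 3 groups of 3 libraries. The first group was wild type (genotype WT) and had no treatment. The second carried the P301S Tau transgene, a form of the microtubule protein tau that aggregates in neurons, and was injected with a scrambled peptide. The third carried the same transgene and was injected with the Cdk5i peptide, an inhibitor, by its name, of cyclin-dependent kinase 5 (Cdk5). Both peptides were given into the peritoneum at 20 mg/kg on alternate days, and the mice were between 7 and 9 months old. Neither the promoter that drives the transgene nor the mouse line is named in the labels, and no wild-type group was injected, so genotype and injection cannot be told apart in any comparison with wild type. The labels number 3 replicates in each group without saying that each is 1 animal, and a p-value therefore reflects only how far these libraries vary, which may be technical.

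Autophagy encloses cytoplasm, protein aggregates and organelles in a double membrane, the autophagosome, and delivers it to the lysosome, where acid hydrolases break it down. The ULK kinase complex starts the process, a class III phosphoinositide 3-kinase complex marks the growing membrane with a lipid signal, and a pair of conjugation reactions attach proteins of the ATG8 family to that membrane. Neurons do not divide and cannot dilute damaged proteins, and loss of Atg5 or Atg7 in neurons of mice is a textbook cause of neurodegeneration. Many lysosomal genes carry a short promoter element, the CLEAR element, that is bound by the transcription factor TFEB.

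The libraries held 21584712 to 26715938 counts each. Ribosomal RNA genes took 0.873% to 3.18% of counts and mitochondrially encoded genes 0.0793% to 0.137%. Rbfox3, which codes for NeuN, was at a mean of 1293 CPM (counts scaled to library size with TMM factors), and the summed level of 9 neuronal markers ran from 5790 to 7090 CPM. The summed level of 11 microglial markers ran from 2.95 to 6.27 CPM, with Itgam at 0 in every library and C1qa, C1qb, C1qc, Tyrobp, Trem2 and Tmem119 at 0 to 5 counts. Endothelial and mural markers summed to 3.62 to 5.33 CPM. Oligodendrocyte markers summed to 74.8 to 84.7 CPM in wild type, 85.2 to 112 CPM with the scrambled peptide and 79.4 to 125 CPM with Cdk5i, mostly from Mbp, and Slc1a2 made up most of the astrocyte markers' 358 to 557 CPM. In sorted nuclei, fewer cells of a type and less RNA per cell cannot be told apart.

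The 44 genes took a small share of all counts, 0.187% to 0.195% in wild type, 0.202% to 0.213% with the scrambled peptide and 0.189% to 0.203% with Cdk5i. Their summed level was 1952 ± 23.9 CPM in wild type, 2016 ± 11.6 CPM with the scrambled peptide and 1977 ± 19.3 CPM with Cdk5i (SD, n = 3 each). Every scrambled library (2005 to 2028 CPM) lay above every library of wild type (1926 to 1972 CPM) and Cdk5i (1963 to 1999 CPM). The sum leans on abundant genes, such as Atp6v0a1 at a mean of 318 CPM in wild type. Summed by part, the lysosomal genes overlapped between scrambled (393.3 to 437.8 CPM) and wild type (389.6 to 407.0 CPM). The autophagy genes overlapped between scrambled (942.7 to 969.1 CPM) and Cdk5i (935.7 to 962.3 CPM), and the V-ATPase genes between all groups. Whole gene bodies were counted, introns included, so levels of different genes are compared per kilobase (kb) of gene. On that scale 35 of the 43 genes were above the median of all tested genes in wild type, and the median gene of the 43 was at the percentile 69.6. Atp6v0a1, the a1 subunit of the membrane-embedded V0 part of the pump and abundant at nerve terminals, was the highest at 5.87 ± 0.312 CPM per kb, percentile 98.2. It was followed by Gaa, the lysosomal glucosidase that breaks down glycogen (4.25 CPM per kb), the protease gene Ctsf (3.08), Gabarapl1 of the ATG8 family (2.52) and Atg16l1 (2.31). Neighbours in this order did not overlap between wild-type libraries from Atp6v0a1 down to Atp6v1b2 (2.02 CPM per kb). From Atp6v1b2 down to Ctsa (1.84 CPM per kb) every neighbouring pair overlapped, and of the 42 neighbouring pairs in the whole order 29 overlapped. The lowest were Ctsz at 0.199, Npc2 at 0.129 and Tfeb at 0.0865 ± 0.0190 CPM per kb, the last at percentile 18.2.

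**Figure D1:**
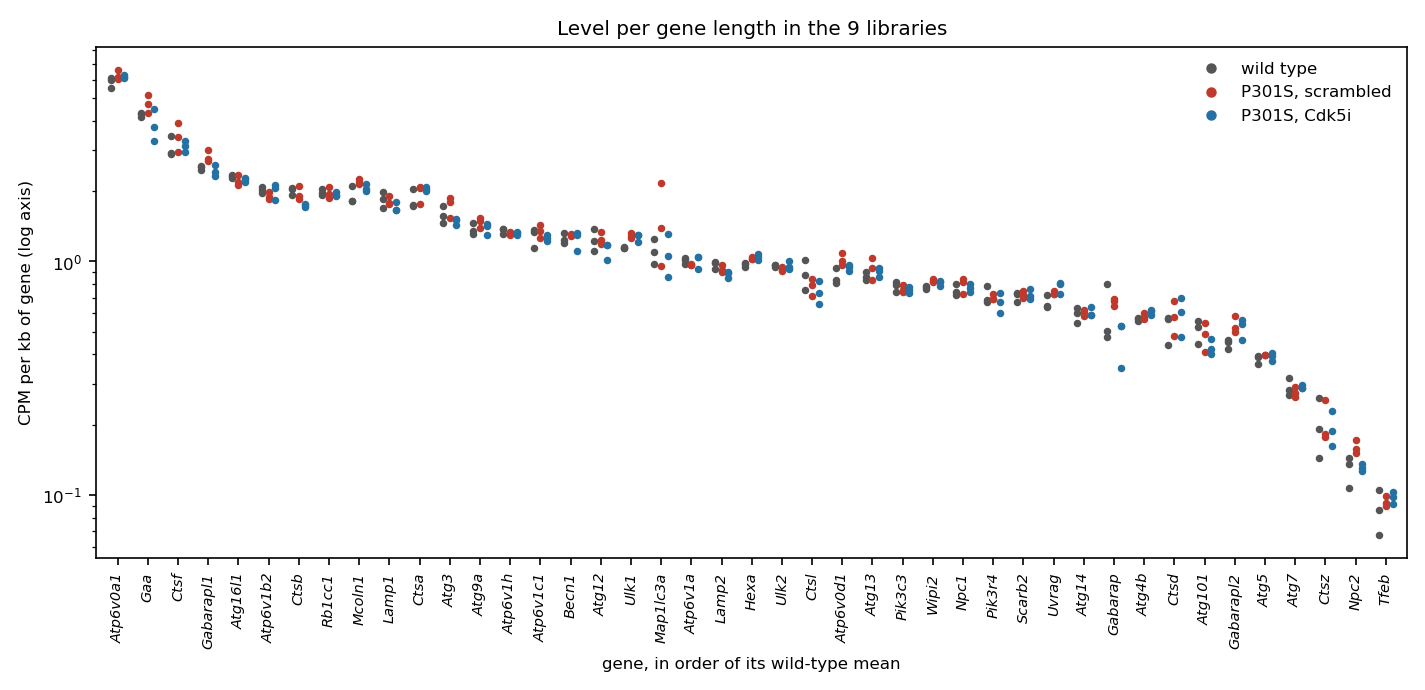
Level of each of the 43 tested genes in CPM per kb of gene (log axis) in the 3 wild-type, 3 scrambled-peptide and 3 Cdk5i libraries (points), with genes ordered by their wild-type mean. The order runs from Atp6v0a1 at 5.87 CPM per kb to Tfeb at 0.0865, and the 3 groups lie close together at nearly every gene.

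A single gene had no value. Map1lc3b, the ATG8 protein LC3B that is the usual protein marker of autophagosomes, was at 0 counts in all 9 libraries. Its whole span, chr8:121590361-121598760 on the plus strand (GRCm38, Ensembl annotation), lies inside Gm20388, an annotated gene of the same strand at chr8:119910841-124345722. Gm20388 had 1492 to 2027 counts per library. By default featureCounts leaves out read pairs that fall in more than 1 gene of a strand, so this 0 is no measure of Map1lc3b expression. Ctsd, the aspartic protease cathepsin D, was overlapped over 55.7% of its length by Gm49369 (1 to 7 counts per library), and Atg9a over 37.8% by Gm29253 (0 counts), so their levels count only part of each gene. The other 41 genes were overlapped over less than 10% of their length.

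Some of the genes had a sequence in common in the promoter, which the list of names did not use. RefSeq promoter windows on GRCm38.p6, from 250 bases before to 50 bases after the annotated start, were at hand for 33 of the 44 genes (36 windows). The letters CACGTG, the core of the CLEAR element and a palindrome that reads alike on both strands, stood in 13 of the 36 windows (36.1%) against 7.15% of all 32851 windows. The longer TCACGTG, on either strand, stood in 27.8% of the windows against 3.77%, and TCACGTGA, which contains both shorter strings, in 16.7% against 0.974%. Over 141 windows of 113 further genes of the same pathways the shares were 14.9%, 14.2% and 4.26%. The 13 genes with CACGTG were Ctsa, Ctsd, Ctsf, Ctsl, Gaa, Lamp1, Mcoln1, Atp6v0d1, Atp6v1a, Atg3, Atg5, Atg7 and Atg14. The other 20 genes with a window lacked it, and no test of these shares was made. A match is a string of letters and not a measured binding site. 5 of these windows are shown from 150 bases before to 20 bases after the start, 5′ to 3′ on the strand of the gene with CACGTG in capitals, because levels of these genes are given below: Mcoln1 at chr8:3500369-3500538 (plus strand), Atp6v0d1 at chr8:105566045-105566214 (minus strand), Gaa at chr11:119267813-119267982 (plus strand), Atg3 at chr16:45158679-45158848 (plus strand) and Lamp1 at chr8:13159011-13159180 (plus strand).
Mcoln1: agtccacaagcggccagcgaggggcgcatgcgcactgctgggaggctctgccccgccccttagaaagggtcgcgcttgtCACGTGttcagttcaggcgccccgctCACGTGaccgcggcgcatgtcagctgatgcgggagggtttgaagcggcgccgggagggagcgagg
Atp6v0d1: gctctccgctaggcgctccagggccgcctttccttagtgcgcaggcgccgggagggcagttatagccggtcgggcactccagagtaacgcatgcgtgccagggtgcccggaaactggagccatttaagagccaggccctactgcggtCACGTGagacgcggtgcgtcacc
Gaa: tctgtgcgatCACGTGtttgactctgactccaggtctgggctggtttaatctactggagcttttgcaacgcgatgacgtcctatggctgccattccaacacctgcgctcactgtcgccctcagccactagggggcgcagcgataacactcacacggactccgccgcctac
Atg3: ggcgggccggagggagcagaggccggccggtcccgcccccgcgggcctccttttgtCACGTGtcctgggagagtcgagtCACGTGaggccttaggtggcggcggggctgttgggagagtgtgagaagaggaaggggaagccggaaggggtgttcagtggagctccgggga
Lamp1: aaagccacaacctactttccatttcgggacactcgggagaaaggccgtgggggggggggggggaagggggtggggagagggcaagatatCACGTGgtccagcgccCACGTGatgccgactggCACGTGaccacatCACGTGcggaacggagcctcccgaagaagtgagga
The string began at positions -71 and -45 from the start in Mcoln1, at -3 in Atp6v0d1, at -140 in Gaa, at -94 and -71 in Atg3, and at -61, -45, -28 and -15 in Lamp1.

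The design gives 3 comparisons: of scrambled peptide with wild type, of Cdk5i with scrambled peptide, and of Cdk5i with untreated wild type. Each pair of comparisons shares a group of libraries, so their values are given side by side and are not independent. As the list was chosen with earlier results known, its medians and shares are descriptions beside those of all genes. No gene of the 43 passed an adjusted p of 0.05 in any of them (edgeR quasi-likelihood test, Benjamini-Hochberg over 16046 genes), and DESeq2 also called 0 in each. Among all tested genes edgeR called 0.0810% in scrambled against wild type, 0.0125% in Cdk5i against scrambled and 0.0748% in Cdk5i against wild type. The labels name no pairing of libraries, and the replicate number was tried as a block. In the first comparison the calls over all genes then went from 13 to 2 in the model of 9 libraries. They went to 176 in a model of those groups alone, with 0 of the 43 genes in both. The lowest adjusted p among the 43 genes was 0.321, 0.819 and 0.270 in turn. The data limit how large a difference could be: the 95% interval of the log2 fold change lay within 0.5 of 0, a 1.41-fold difference, for 37, 37 and 35 of the 43 genes. The median standard error of their log2 fold changes was 0.0766, 0.0764 and 0.0767, against 0.138, 0.137 and 0.138 over all tested genes. The widest intervals belonged to the genes with the fewest counts, and for Map1lc3a, at a mean of 1.97 CPM in wild type, the interval of Cdk5i minus scrambled ran from -1.07 to 0.12.

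In scrambled against wild type the genes leaned upward by amounts smaller than the test resolves. The median log2 difference of the 43 genes was 0.07, against 0.01 over all genes, and 29 of the 43 were positive against 51.7% of all genes. The median was 0.04 without wild-type replicate 1 and 0.03 without scrambled replicate 2. 3 genes (6.98%) had an unadjusted p under 0.05, all higher with the scrambled peptide, against 10.1% of all genes. Without scrambled replicate 3 the count was 6 of the 43, against 1667 of 16332 genes. 10 genes (23.3%) were higher in all 3 scrambled libraries than in any wild-type library, against 8.26% of all genes, and 0 were lower in the same sense, against 8.03%. These 10 were Atp6v0d1, Ulk1, Mcoln1, Gabarapl1, Gabarapl2, Uvrag, Wipi2, Hexa, Npc2 and Atg5. A lack of overlap also depends on noise, here and in the other comparisons. The median standard error was 0.0766 for the 43 genes against 0.138 for all genes, so the 2 shares are not strictly alike. Oligodendrocyte markers leaned upward too in this comparison: all 8 tested were positive, with a median log2 difference of 0.39. Of these 3 were higher without overlap, and 0 passed the test. The 4 tested microglial markers were also all positive (median 0.21, spread unevenly from 0.14 to 1.05), and 0 passed. Positive were 4 of 8 astrocyte markers, 2 of 3 of oligodendrocyte precursors, and 2 of 5 of endothelial and mural cells.

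In Cdk5i against scrambled the lean was downward. The median log2 difference was -0.04 against -0.01 over all genes, and 30 of the 43 genes were negative against 52.8% of all genes. Without scrambled replicate 2 the median was -0.03. 4 genes (9.3%) had an unadjusted p under 0.05, all lower with Cdk5i, against 5.33% of all genes. The count depended on single libraries: it was 1 without scrambled replicate 2 (against 664 of 16358 genes), 1 without Cdk5i replicate 1 (766 of 16384) and 2 without Cdk5i replicate 3 (1138 of 16297). It was 3 without scrambled replicate 1 (800 of 16247), 4 without scrambled replicate 3 (1071 of 16332) and 5 without Cdk5i replicate 2 (911 of 16307). 8 genes (18.6%) were lower in all 3 Cdk5i libraries than in any scrambled library, against 5.38% of all genes, and 0 were higher, against 4.95%. These 8 were Ctsb, Atg3, Gabarapl1, Gabarap, Atg12, Lamp2, Mcoln1 and Npc2. Of the 8 oligodendrocyte markers 6 were negative, with a median log2 difference of -0.26, and 0 passed the test. Their summed level was not lower, at 101.3 ± 14.27 CPM with the scrambled peptide and 102.8 ± 22.64 CPM with Cdk5i (SD, n = 3 each). Of the 4 microglial markers 3 were negative (median -0.18, spread unevenly from -1.35 to 0.06), and 0 passed. Negative were 4 of 8 astrocyte markers, 2 of 3 of oligodendrocyte precursors, and 2 of 5 of endothelial and mural cells. The part of any of these cell types in the lean of either comparison was not tested.

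In Cdk5i against wild type the 43 genes had a median log2 difference of 0.01 against -0.01 over all genes, with 23 positive and 20 negative. 4 genes (9.3%) had an unadjusted p under 0.05, with Uvrag and Ulk1 higher and Ctsb and Lamp2 lower, against 11.0% of all genes. 7 genes (16.3%) were higher without overlap (Uvrag, Ulk1, Hexa, Wipi2, Atg4b, Gabarapl2 and Atp6v0a1), against 8.03% of all genes. Ctsb and Lamp2, 4.65%, were lower without overlap, against 8.22% of all genes. Oligodendrocyte markers remained higher here, with 6 of the 8 tested positive, a median log2 difference of 0.34, and 0 past the test. Of the 4 microglial markers 2 were positive and 2 negative.

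**Figure D2:**
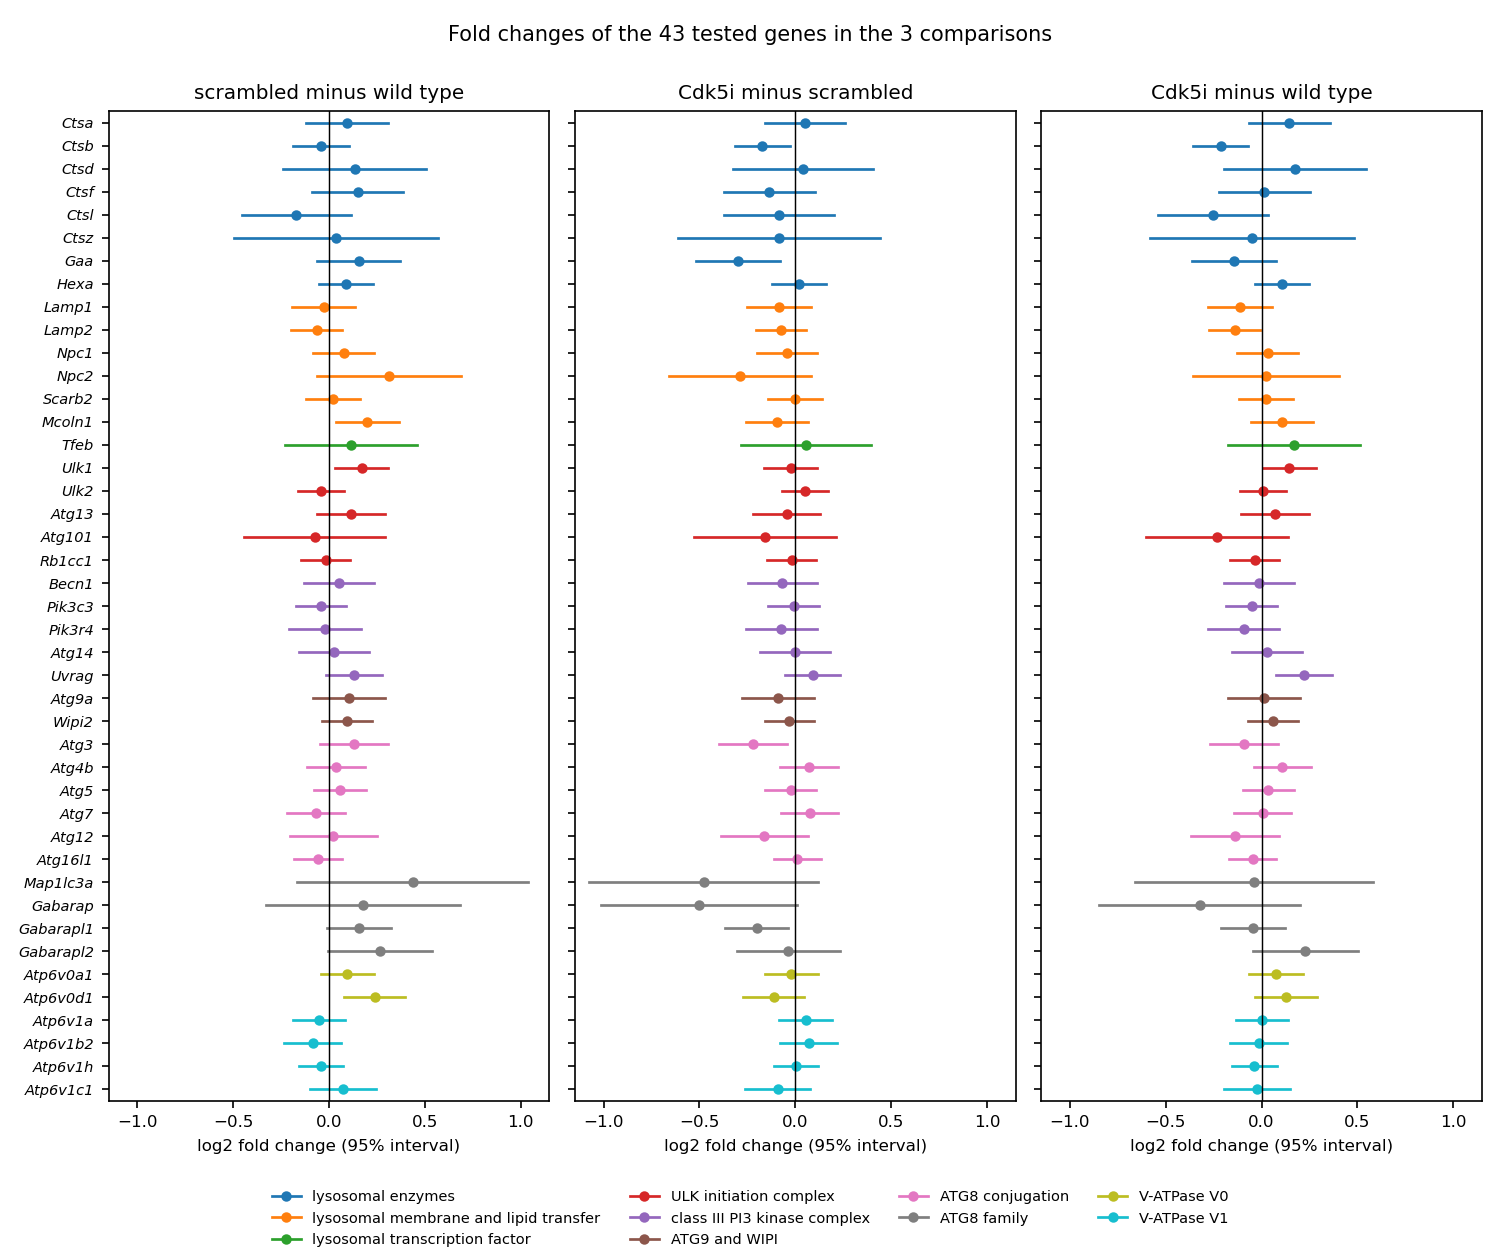
Log2 fold change (points) with its 95% interval (lines) of each of the 43 tested genes in the 3 comparisons, coloured by sub-class. Most intervals cross 0, and the intervals of the ATG8 family genes Map1lc3a and Gabarap are among the widest.

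The lysosomal enzymes are the acid hydrolases that do the breaking down. The summed level of the 8 enzymes was 199 ± 3.88 CPM in wild type, 210 ± 16.3 CPM with the scrambled peptide and 188 ± 12.04 CPM with Cdk5i (SD, n = 3 each), and the ranges of the groups overlapped. Ctsb (ENSMUSG00000021939, chr14:63122462-63145923) codes for cathepsin B, a cysteine protease. It was at 48.0, 45.0 and 48.5 CPM in wild type, at 43.5, 49.6 and 44.6 CPM with the scrambled peptide and at 40.2, 41.2 and 40.8 CPM with Cdk5i. All 3 Cdk5i libraries lay below the other 6. The log2 difference was -0.17 ± 0.07 (SE) from scrambled, with an unadjusted p of 0.0232 and an adjusted p of 0.891, and -0.21 ± 0.07 from wild type, with an unadjusted p of 0.00711 and an adjusted p of 0.290 (edgeR). Gaa (ENSMUSG00000025579, chr11:119267887-119285454) was at 73.0, 75.2 and 76.0 CPM in wild type, at 82.8, 90.8 and 75.9 CPM with the scrambled peptide and at 57.7, 66.2 and 78.8 CPM with Cdk5i. Its Cdk5i libraries were spread widely, and the highest of them lay inside the scrambled range. Gaa had the lowest p of the 43 genes in Cdk5i against scrambled, with a log2 difference of -0.30 ± 0.10 (SE) and an adjusted p of 0.819 (edgeR). With no filter on low counts, where 159 genes in place of 2 passed, its adjusted p was 0.0324 (edgeR).

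The other enzymes showed smaller or less certain differences. Hexa, the α subunit of the hexosaminidase that degrades the ganglioside GM2, ran from 24.3 to 25.3 CPM in wild type, from 26.2 to 26.7 CPM with the scrambled peptide and from 25.9 to 27.6 CPM with Cdk5i, so wild type lay below both transgenic groups. Its log2 difference of scrambled minus wild type was 0.09 ± 0.07 (SE), with an adjusted p of 0.692 (edgeR). Ctsa, Ctsd, Ctsf, Ctsl and Ctsz overlapped between groups in all 3 comparisons. Their log2 differences ran from -0.17 (Ctsl) to 0.15 (Ctsf) in scrambled against wild type, from -0.14 (Ctsf) to 0.05 (Ctsa) in Cdk5i against scrambled, and from -0.25 (Ctsl) to 0.18 (Ctsd) in Cdk5i against wild type. Many cathepsins are strongly expressed in microglia, and the sum of the microglial markers was 3.75 ± 0.881 CPM in wild type, 5.31 ± 1.28 CPM with the scrambled peptide and 3.79 ± 0.404 CPM with Cdk5i (SD, n = 3 each). Like the enzymes' sum, its mean was highest with the scrambled peptide, and its ranges overlapped between groups. The most abundant of the enzymes was Gaa, which is not a cathepsin. Its means were 74.72, 83.17 and 67.55 CPM in the 3 groups in turn. Of the cathepsins, Ctsf and Ctsz also had their highest mean with the scrambled peptide. Ctsa and Ctsd had it with Cdk5i, and Ctsb and Ctsl in wild type. The part of microglia in the enzyme levels was not tested.

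The lysosomal membrane and lipid transfer genes gave the pair Lamp2 and Mcoln1, which stood apart in different groups. Lamp2 (ENSMUSG00000016534, chrX:38401357-38456454) codes for a glycoprotein of the lysosomal membrane, a form of which is the receptor of chaperone-mediated autophagy. It was at 54.4, 51.3 and 55.1 CPM in wild type, at 53.2, 50.6 and 49.9 CPM with the scrambled peptide and at 49.7, 49.4 and 46.8 CPM with Cdk5i. The Cdk5i libraries were the 3 lowest, by a narrow margin from the scrambled group. The log2 difference of Cdk5i minus wild type was -0.14 ± 0.06 (SE), with an unadjusted p of 0.0380 and an adjusted p of 0.423 (edgeR), and Cdk5i minus scrambled was -0.08 ± 0.06. Mcoln1 (ENSMUSG00000004567, chr8:3500457-3515232) codes for the lysosomal cation channel TRPML1, which releases calcium from the lysosome. It was at 31.2, 26.8 and 26.7 CPM in wild type, at 33.4, 32.4 and 31.6 CPM with the scrambled peptide and at 30.0, 31.6 and 29.6 CPM with Cdk5i. The scrambled libraries were the 3 highest of the 9, by a narrow margin from Cdk5i, and 1 wild-type library stood above its 2 fellows. The log2 difference of scrambled minus wild type was 0.20 ± 0.08 (SE), with an unadjusted p of 0.0200 and an adjusted p of 0.406 (edgeR), and Cdk5i minus scrambled was -0.09 ± 0.07.

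The remaining members of this sub-class were near 0 or imprecise. Npc1 and Npc2 code for the proteins that hand cholesterol out of the lysosome. Npc2, with few counts, was at 2.40 ± 0.361 CPM in wild type, 2.98 ± 0.199 CPM with the scrambled peptide and 2.44 ± 0.0773 CPM with Cdk5i (SD, n = 3 each), and the scrambled libraries lay above the other 6. The 95% interval of its log2 difference crossed 0 in every comparison, from -0.06 to 0.69 in scrambled against wild type. Lamp1, a membrane glycoprotein like Lamp2, was at 29.9 ± 2.27 CPM in wild type, 29.3 ± 1.32 CPM with the scrambled peptide and 27.6 ± 1.31 CPM with Cdk5i (SD, n = 3 each), and the groups overlapped. Lamp1, Npc1 and Scarb2, the last of which carries glucocerebrosidase to the lysosome, had log2 differences from -0.11 to 0.08 over the 3 comparisons. Tfeb (ENSMUSG00000023990, chr17:47737030-47792419), the transcription factor of lysosomal genes, was at 3.75, 4.78 and 5.86 CPM in wild type, at 4.97, 5.14 and 5.47 CPM with the scrambled peptide and at 5.45, 5.07 and 5.69 CPM with Cdk5i. Wild type alone covered the whole range of the other groups. The log2 difference was 0.11 ± 0.16, 0.06 ± 0.16 and 0.17 ± 0.16 (SE) in the 3 comparisons in turn.

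The genes with CACGTG in their promoter window are set beside those without it as a description, and the difference between them was not tested. In scrambled against wild type the median log2 difference was 0.09 for the 13 genes with it and 0.10 for the 19 tested genes with a window that lacked it. In Cdk5i against scrambled it was -0.08 and -0.04, and in Cdk5i against wild type 0.01 and 0.02. All 1289 tested genes with CACGTG had medians of 0.02, -0.01 and 0.01.

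In the ULK initiation complex, only Ulk1 stood apart without overlap in the comparisons made. Ulk1 (ENSMUSG00000029512, chr5:110784488-110810097), the kinase that starts autophagy when mTORC1 activity is low, was at 29.3, 29.2 and 29.6 CPM in wild type, at 33.0, 33.8 and 32.3 CPM with the scrambled peptide and at 33.3, 33.2 and 30.9 CPM with Cdk5i. The wild-type libraries were tightly grouped below the 6 transgenic ones. The log2 difference was 0.17 ± 0.06 (SE) in scrambled minus wild type, with an unadjusted p of 0.0192 and an adjusted p of 0.402 (edgeR), and 0.15 ± 0.06 in Cdk5i minus wild type, with an adjusted p of 0.428 (edgeR). Cdk5i minus scrambled was -0.02 ± 0.06. Rb1cc1 (ENSMUSG00000025907, chr1:6206197-6276648), the scaffold FIP200 of the complex, was at 145, 136 and 139 CPM in wild type, at 137, 132 and 146 CPM with the scrambled peptide and at 139, 135 and 134 CPM with Cdk5i. These ranges overlapped throughout, and the 95% interval of Cdk5i minus scrambled ran from -0.15 to 0.11. Ulk2, the second kinase, and Atg13 and Atg101, which link kinase and scaffold, overlapped between groups in every comparison, with log2 differences from -0.23 (Atg101, Cdk5i minus wild type) to 0.11 (Atg13, scrambled minus wild type).

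In the class III phosphoinositide 3-kinase complex the gene that stood out was Uvrag, whose product replaces ATG14 in the form of the complex that acts on endosomes. Uvrag (ENSMUSG00000035354, chr7:98885021-99141141) is the longest of the 44 genes at 256121 bases. It was at 163, 184 and 165 CPM in wild type, at 192, 185 and 185 CPM with the scrambled peptide and at 207, 206 and 185 CPM with Cdk5i. Every transgenic library lay above every wild-type library. Cdk5i minus wild type was 0.22 ± 0.07 (SE) on the log2 scale, with an unadjusted p of 0.00586 and an adjusted p of 0.270 (edgeR), the lowest p of the 43 genes in that comparison. Scrambled minus wild type was 0.13 ± 0.07 and Cdk5i minus scrambled 0.09 ± 0.07. The core subunits Becn1, Pik3c3 (the kinase VPS34) and Pik3r4 (VPS15), and Atg14, which directs the complex to autophagosomes, had log2 differences between -0.09 and 0.05 and overlapped in every comparison.

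Downstream of the lipid signal, Wipi2 (ENSMUSG00000029578, chr5:142627698-142670588) binds it and recruits ATG16L1. It was at 32.8, 33.6 and 33.5 CPM in wild type, at 35.2, 35.0 and 36.2 CPM with the scrambled peptide and at 35.1, 35.4 and 33.7 CPM with Cdk5i. Wild type was again the lowest group without overlap, by 0.09 ± 0.06 and 0.06 ± 0.06 (SE) on the log2 scale, and the adjusted p was 0.645 and 0.753 (edgeR). Atg9a, the lipid scramblase of the vesicles that seed the membrane, was at 15.6 ± 0.833, 16.7 ± 0.828 and 15.7 ± 0.911 CPM in the 3 groups in turn (SD, n = 3 each).

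The conjugation enzymes attach ATG8 proteins to lipid. ATG7 activates them, ATG3 transfers them, the ATG12, ATG5 and ATG16L1 complex acts as the ligase, and ATG4B trims and recycles them. Atg3 (ENSMUSG00000022663, chr16:45158785-45188538) was at 51.2, 46.5 and 43.4 CPM in wild type, at 53.2, 45.7 and 55.4 CPM with the scrambled peptide and at 42.5, 44.6 and 45.4 CPM with Cdk5i. The Cdk5i libraries lay below the lowest scrambled library by a small margin and within the wild-type range or just under it. Cdk5i minus scrambled was -0.22 ± 0.08 (SE) on the log2 scale, with an unadjusted p of 0.0188 and an adjusted p of 0.872 (edgeR). Atg16l1 (ENSMUSG00000026289, chr1:87755870-87792428) was at 85.6, 82.9 and 85.2 CPM in wild type, at 77.9, 80.2 and 85.6 CPM with the scrambled peptide and at 83.4, 82.5 and 79.7 CPM with Cdk5i, with no group apart from another. Atg12 had log2 differences of 0.02 ± 0.11, -0.16 ± 0.11 and -0.14 ± 0.11 (SE) in the 3 comparisons in turn. Atg4b, Atg5 and Atg7 ran from -0.07 to 0.11, with Atg4b highest in Cdk5i at 23.9 ± 0.590 CPM against 22.1 ± 0.394 CPM in wild type (SD, n = 3 each).

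The ATG8 family had the largest median differences of the sub-classes in the comparisons of scrambled with wild type and of Cdk5i with scrambled, and apart from Gabarapl1 its intervals were wide. All 4 tested genes, Gabarap, Gabarapl1, Gabarapl2 and Map1lc3a, were positive in scrambled minus wild type, with a median log2 difference of 0.22, and all 4 were negative in Cdk5i minus scrambled, with a median of -0.34. Their summed level was 33.1 ± 1.53 CPM in wild type, 38.0 ± 2.22 CPM with the scrambled peptide and 32.9 ± 2.42 CPM with Cdk5i (SD, n = 3 each), and every scrambled library was above the other 6. Gabarapl1 (ENSMUSG00000030161, chr6:129533160-129542346), with most of these counts, was at 23.3, 22.5 and 23.6 CPM in wild type, at 24.6, 27.6 and 25.3 CPM with the scrambled peptide and at 21.3, 23.9 and 22.2 CPM with Cdk5i. Its 3 scrambled libraries were the highest of the 9. Scrambled minus wild type was 0.16 ± 0.08 (SE) on the log2 scale, with an unadjusted p of 0.0604 and an adjusted p of 0.524, and Cdk5i minus scrambled was -0.20 ± 0.08, with an unadjusted p of 0.0202 and an adjusted p of 0.888 (edgeR). Gabarapl2 (ENSMUSG00000031950, chr8:111940703-111953612), whose product acts in fusion with the lysosome and in Golgi traffic, was at 5.98, 5.48 and 5.81 CPM in wild type, at 6.71, 6.45 and 7.58 CPM with the scrambled peptide and at 5.98, 6.97 and 7.26 CPM with Cdk5i. Its scrambled libraries lay above wild type, and its Cdk5i libraries were spread from the top of the wild-type range into the scrambled range. The log2 difference was 0.26 ± 0.13 in scrambled minus wild type and -0.04 ± 0.12 in Cdk5i minus scrambled (SE). Gabarap was at 2.25 ± 0.685, 2.56 ± 0.0863 and 1.79 ± 0.394 CPM in the 3 groups in turn and Map1lc3a at 1.97 ± 0.247, 2.68 ± 1.09 and 1.91 ± 0.407 CPM (SD, n = 3 each). For Map1lc3a the scrambled mean rests on replicate 2 at 3.86 CPM, with the other scrambled libraries at 2.47 and 1.71 CPM.

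**Figure D3:**
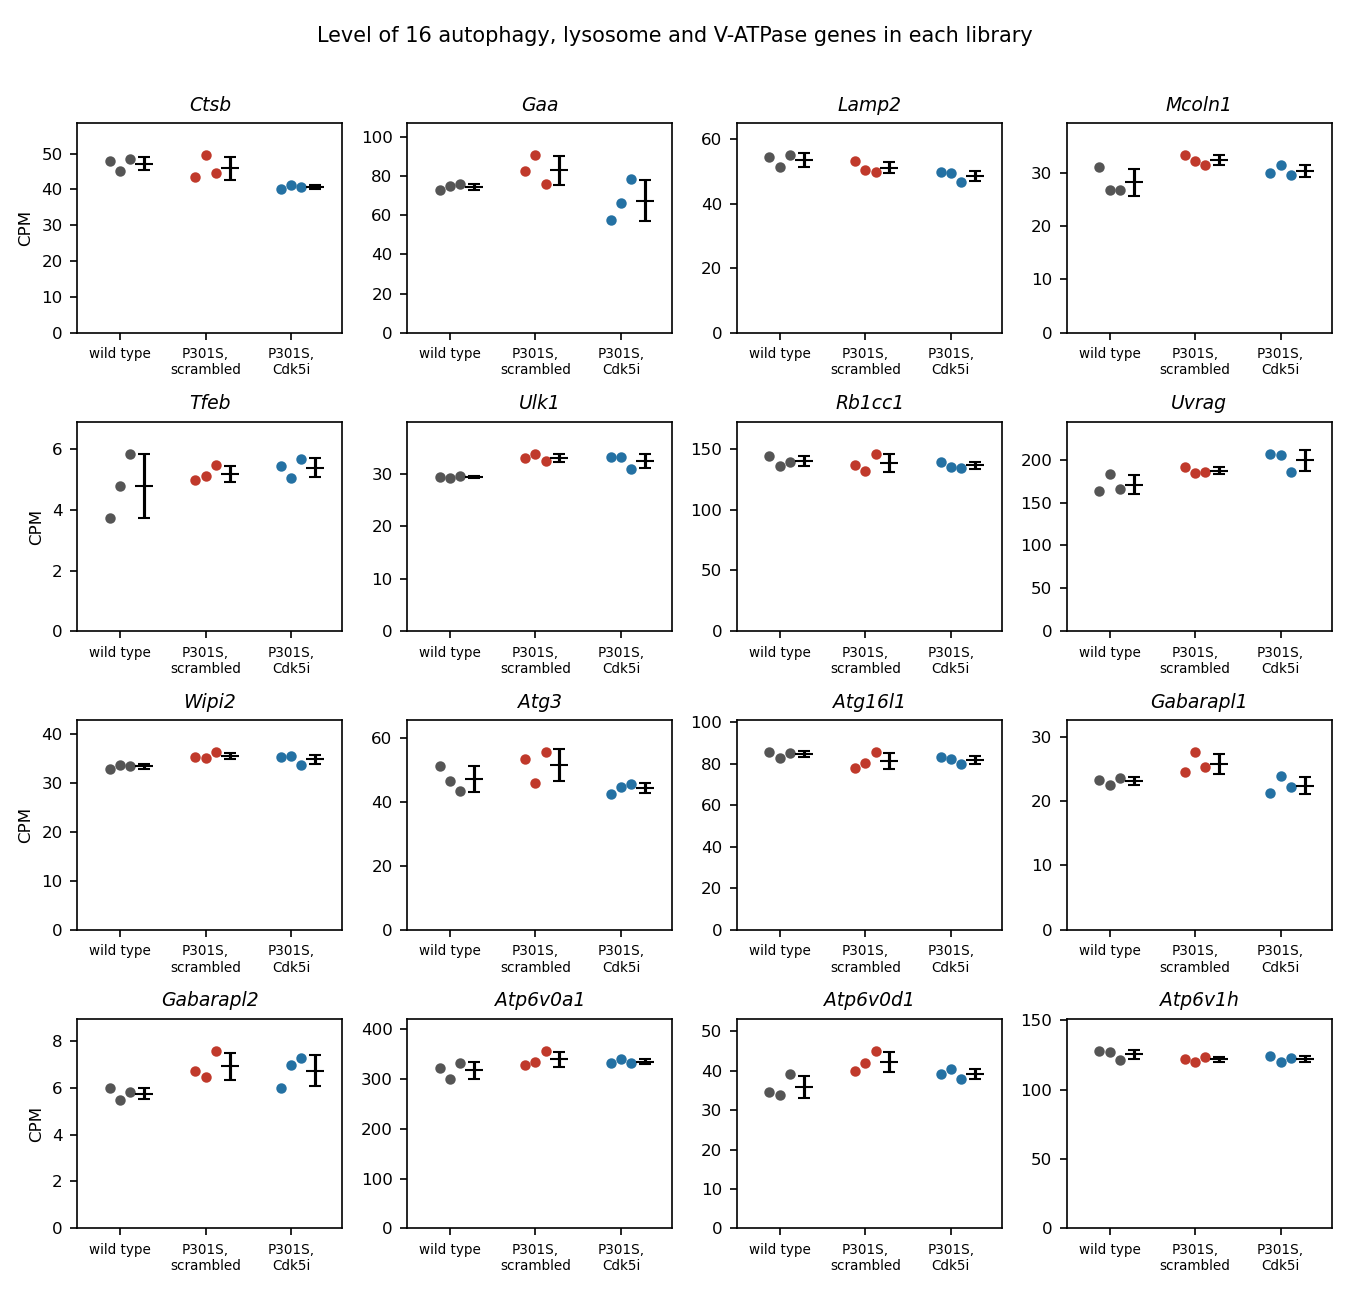
Level in CPM (linear axis from 0) of 16 of the genes in each library (points), with the mean and SD of each group of 3 as a bar. Ctsb and Lamp2 are lowest in the Cdk5i libraries, Gabarapl1 and Mcoln1 are highest in the scrambled libraries, and Ulk1 and Uvrag are lowest in wild type.

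The V-ATPase pumps protons with a rotary engine, in which the V1 part splits ATP in the cytosol and the V0 part carries the protons through the membrane. Its 6 genes summed to 624 ± 24.0 CPM in wild type, 646 ± 17.2 CPM with the scrambled peptide and 640 ± 10.5 CPM with Cdk5i (SD, n = 3 each), with overlap between all groups. Atp6v0d1 (ENSMUSG00000013160, chr8:105524465-105566047), the d1 subunit that joins the V0 ring to the rotor of V1, had the lowest p of the 43 genes in scrambled against wild type. It was at 34.7, 33.8 and 39.2 CPM in wild type, at 40.1, 41.9 and 45.1 CPM with the scrambled peptide and at 39.3, 40.4 and 38.0 CPM with Cdk5i. The scrambled libraries lay above all wild-type ones, by 0.24 ± 0.07 (SE) on the log2 scale, with an unadjusted p of 0.00658 and an adjusted p of 0.321 (edgeR). Cdk5i minus scrambled was -0.11 ± 0.07. Atp6v0a1 (ENSMUSG00000019302, chr11:101009452-101063719) was at 323, 299 and 332 CPM in wild type, at 329, 335 and 357 CPM with the scrambled peptide and at 332, 340.4 and 333 CPM with Cdk5i. The Cdk5i libraries lay just above wild type, by 0.08 ± 0.06 (SE) on the log2 scale with an adjusted p of 0.709 (edgeR).

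Of the 4 V1 genes 3 were negative in scrambled minus wild type, where both V0 genes were positive, and the difference between V0 and V1 was not tested. The wider list described below holds 20 other V-ATPase genes, of which 18 were tested. Negative were 10, 10 and 14 of these 18 in the 3 comparisons in turn, with medians of -0.03, -0.03 and -0.08. The 20 genes summed to 1154 ± 31.63 CPM in wild type, 1106 ± 24.56 CPM with the scrambled peptide and 1112 ± 23.63 CPM with Cdk5i (SD, n = 3 each). Atp6v1h (ENSMUSG00000033793, chr1:5070018-5162529), the regulatory H subunit, was at 128, 127 and 122 CPM in wild type, at 122, 120 and 123 CPM with the scrambled peptide and at 124, 120 and 123 CPM with Cdk5i. The 3 groups overlapped, and its standard error of 0.05 was the smallest among the 43 genes. Atp6v1a and Atp6v1b2 code for the subunits of the ATP-splitting ring and Atp6v1c1 for a stator subunit. Over these 4 genes the log2 differences ran from -0.09 (Atp6v1b2) to 0.07 (Atp6v1c1) in scrambled minus wild type and from -0.09 (Atp6v1c1) to 0.07 (Atp6v1b2) in Cdk5i minus scrambled. No V1 gene was without overlap in any of the 3 comparisons.

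The differences were related to gene length, in the same direction as over all genes and with larger coefficients. Over the 43 genes, Pearson's r between the log2 difference and log2 gene length was -0.419 in scrambled minus wild type, 0.673 in Cdk5i minus scrambled and 0.316 in Cdk5i minus wild type (Spearman's rho -0.35, 0.614 and 0.238). Over all 16046 genes r was -0.125, 0.217 and 0.0671. The size of r also depends on noise, and the 43 genes had smaller median standard errors than all genes. Slopes were not compared, so a larger r does not show a stronger relation to length. These are correlations across genes, which share libraries and are not replicates, and the shortest, Map1lc3a and Gabarap, are also among those with the fewest counts. Of the 17 genes under 20 kb, which include all 4 ATG8 family genes, 15 were negative in Cdk5i minus scrambled (88.2%), with a median of -0.09, against 63.8% of all genes under 20 kb, with a median of -0.06. Of the 26 longer genes 15 were negative (57.7%), with a median of -0.01, against 44.8% of all longer genes. When all genes were put in 10 bins by length and each bin's median was subtracted, the median of the 43 genes in Cdk5i minus scrambled was -0.03 and that of the ATG8 family -0.26, with 3 of its 4 genes negative. In scrambled minus wild type those medians were 0.06 and 0.17. Uvrag, the longest, had 0.09 in Cdk5i minus scrambled before this subtraction and 0.01 after it. The part of length in the differences was not tested.

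**Figure D4:**
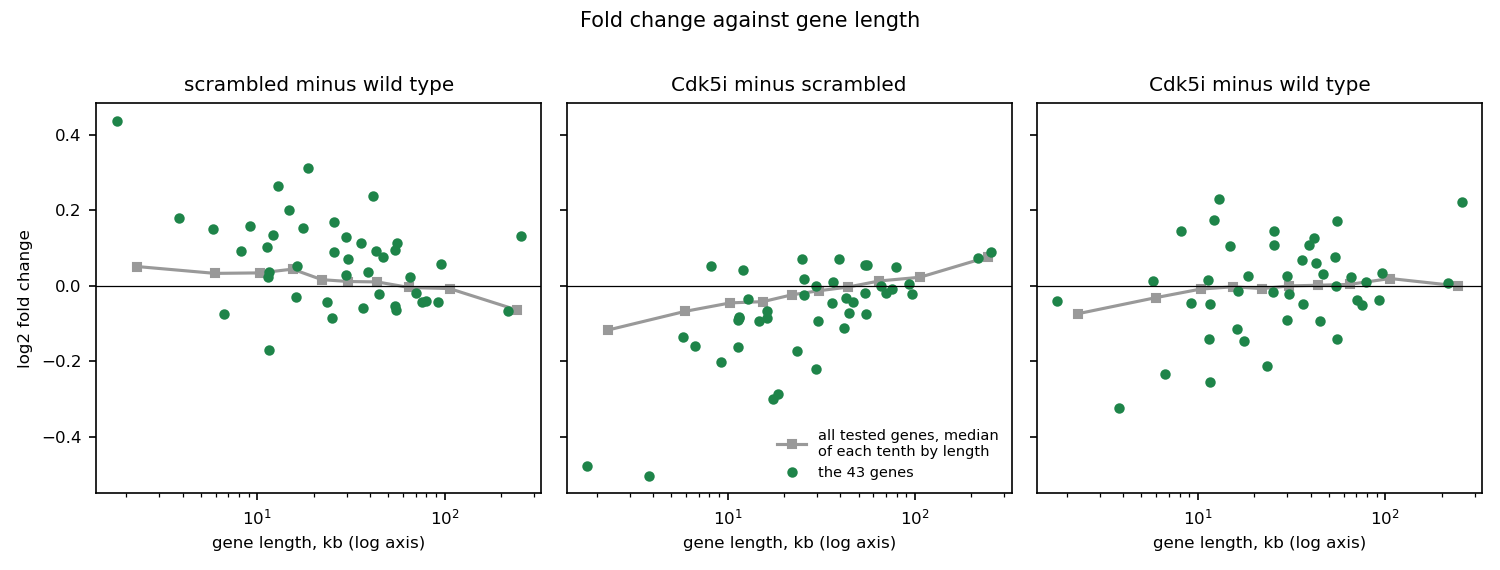
Log2 fold change against gene length in kb (log axis) for the 43 genes (green points) and the median of all tested genes in each of 10 bins by length (grey squares and line), in the 3 comparisons. In Cdk5i minus scrambled, 15 of the 17 genes under 20 kb lie below 0, and the grey line also lies below 0 for short genes.

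How far libraries of a group differ set what could be seen. The SD between libraries of a group, pooled over groups, was 0.0290 to 0.399 on the log2 scale with a median of 0.0821. It had a median of 0.0663 for the 28 genes with a mean of at least 500 counts and of 0.151 for the 15 with fewer. In simulated counts with the spread of these libraries, a log2 change of 0.5 was called for 37% of the altered genes and a change of 1 for 70% in scrambled minus wild type, for 37% and 67.7% in Cdk5i minus scrambled, and for 29.3% and 68% in Cdk5i minus wild type. Of the calls made there, 8.73%, 7.23% and 8.25% were of genes that had not been altered, above the 5% aimed at. These rates are for genes drawn from all 16046, whose median standard error is larger than that of the 43 genes. Each simulated set held 200 altered genes, and the share called also depends on that number, which is unknown for the real libraries. In the real counts edgeR called 13, 2 and 12 genes in the 3 comparisons in turn. The rates are therefore not those of the 43 genes.

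A wider list of 138 other genes of the same pathways, made up of further lysosomal enzymes and membrane genes, V-ATPase subunits, autophagy machinery, autophagy receptors, and genes that control TFEB and mTORC1, was tested in the same fit. 132 of them were tested (not Ctsh, Atp6v0d2, Atp6v1b1, Wdr45, Vamp8 and Ccpg1), and 0 passed in any comparison by edgeR. In scrambled minus wild type 84 were positive and 48 negative (median 0.03), and 8 higher and 1 lower had an unadjusted p under 0.05 (6.82%, against 10.1% of all genes). 12 were higher and 6 lower without overlap (9.09% and 4.55%, against 8.26% and 8.03% of all genes). In Cdk5i minus scrambled 50 were positive and 82 negative (median -0.03), with 1 higher and 1 lower (1.52%, against 5.33%), and 4 higher and 5 lower without overlap (3.03% and 3.79%, against 4.95% and 5.38%). In Cdk5i minus wild type 63 were positive and 69 negative (median -0.01), with 7 higher and 7 lower (10.6%, against 11.0%), and 10 higher and 12 lower without overlap (7.58% and 9.09%, against 8.03% and 8.22%). None of these shares of genes with a low p was above that of all genes. The gene nearest to the threshold was Tpcn1 (ENSMUSG00000032741, chr5:120534153-120588673), a cation channel of endosomes and lysosomes. Tpcn1 was at 15.5, 15.5 and 15.9 CPM in wild type, at 20.4, 20.0 and 17.9 CPM with the scrambled peptide and at 20.9, 22.2 and 20.9 CPM with Cdk5i. All 6 transgenic libraries were above wild type, by 0.31 ± 0.08 (SE) on the log2 scale with the scrambled peptide, with an adjusted p of 0.271, and by 0.45 ± 0.08 with Cdk5i, with an adjusted p of 0.0903 (edgeR).

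Other genes of the wider list had the lowest p in 1 direction of a comparison. Mitf (ENSMUSG00000035158, chr6:97807052-98021349), a transcription factor of the same family as TFEB, was at 83.1, 90.7 and 77.4 CPM in wild type, at 78.9, 81.9 and 80.8 CPM with the scrambled peptide and at 104, 96.6 and 93.1 CPM with Cdk5i. Its Cdk5i libraries were the 3 highest, by 0.28 ± 0.07 (SE) over scrambled, with an adjusted p of 0.509, and by 0.23 ± 0.07 over wild type, with an adjusted p of 0.267 (edgeR). Asah1, the lysosomal ceramidase, had a log2 difference of -0.30 ± 0.10 in Cdk5i minus scrambled, with an adjusted p of 0.819, and M6pr, a receptor that sorts enzymes to the lysosome, had -0.21 ± 0.10, with an adjusted p of 0.922 (edgeR). Atg2a, which moves lipid into the growing membrane, had 0.28 ± 0.08 in scrambled minus wild type, with an adjusted p of 0.311 (edgeR). In that comparison Stx17, a syntaxin that acts in fusion with the lysosome, had -0.17 ± 0.08 and the V1 subunit gene Atp6v1c2 had -0.43 ± 0.19. The V0 subunit gene Atp6v0b and the accessory gene Atp6ap1 had -0.30 ± 0.11 and -0.22 ± 0.09 in Cdk5i minus wild type, and Atp6v0e, also of V0, had 0.13 ± 0.07 in Cdk5i minus scrambled.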

How the data were processed

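Per the labels' protocols, RNA of sorted NeuN-positive nuclei was isolated with an FFPE tissue kit, turned into stranded total RNA libraries and read with 40 bases from each end. The deposited files, 1 per library, hold raw counts of read pairs for each gene. Per the file headers the authors made them with featureCounts, with whole genes (introns included) as features, reversed strand and Ensembl GRCm38 annotation. The submitters' processing notes name DESeq2 1.36.0, Subread 2.0.0 and STAR 2.7.9a, with no role given. Of 55401 genes, 99.5% had a symbol.

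Counts were fitted with edgeR 4.0.16 in R 4.3.3 (limma 3.58.1, DESeq2 1.42.0 as alternatives): filterByExpr at a minimum count of 10, TMM factors, 1 robust quasi-likelihood model of 3 group means over all 9 libraries, and Benjamini-Hochberg adjustment over 16046 genes at 0.05, tested on simulated data. Groups came from the sample titles. Libraries of a group differed by more than sampling noise, so none was a copy. Deviations from the group means correlated weakly between same-numbered wild-type and scrambled libraries (r = 0.212, 0.12 and 0.112). In the other comparisons r ran from -0.392 to 0.0214, so values of this size do not establish a pairing. The labels name none, and the replicate number was a block in alternatives only. The members and lists were chosen with earlier results of these data known. Values in all libraries are given for the 4 genes with the lowest p in each comparison and the gene with the highest mean count in each sub-class. Promoter sequences are from RefSeq. Alternatives covered scaling, filters, dispersion, tests, the replicate block, gene length and leaving out each library.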

Additional observations from a re-analysis of the deposited data

How the results depend on the processing

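Under every alternative run, 0 of the 43 genes passed in scrambled against wild type and in Cdk5i against wild type, with a lowest adjusted p over the alternatives of 0.115 and 0.0783. In Cdk5i against scrambled 0 passed except with no filter on low counts, where 1 did, Gaa at -0.29 with an adjusted p of 0.0324 (edgeR), and the cause was not tested. Calls over all genes were far less stable, from 2 to 318, from 1 to 159 and from 0 to 408 in the 3 comparisons in turn against 13, 2 and 12, and DESeq2 gave 75, 27 and 111. With the replicate block over all 9 libraries 2 genes were called in each comparison and the median log2 difference of the 43 genes was 0.07, -0.04 and 0.01. With the block in a model of only the groups compared, chosen after seeing the data, 176, 1 and 0 genes were called. The block called 0 of the 43 genes in both forms. Leaving out 1 library at a time moved the median from 0.0348 to 0.0773 in scrambled against wild type, from -0.0540 to -0.0252 in Cdk5i against scrambled and from -0.0175 to 0.0312 in Cdk5i against wild type, where its sign depended on the libraries used. Over the 16 genes with values in all libraries, 272, 270 and 272 of 272 values per comparison kept their call or, where no test was run, their size. The exceptions were Gaa, above, and Uvrag at 0.01 after the length medians were subtracted. Differences near 0 could change sign. Atp6v1h in Cdk5i minus scrambled did so with this subtraction, from 0.00504 in a length bin with a median of 0.0227. Medians of sub-classes that lie near 0 changed sign with scaling, among them the conjugation enzymes and the phosphoinositide 3-kinase complex in Cdk5i against scrambled. No rescaling moved the median of all genes by more than 0.1. Genes at a few CPM, such as Map1lc3a, Gabarap, Npc2 and Ctsz, were limited by depth.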
